A study of Mus musculus with 44 samples.

Results

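Adar and Adarb1 encode the 2 RNA-editing enzymes whose transcripts were measured on the ribosomes of Crh neurons of the central amygdala, out of 8203 genes in the table. They were chosen by name. Adar was already known from earlier results of these data to be lower after extinction than after tones alone, and Adarb1 was taken as the only other enzyme of that kind in the table. The EXT vs. TA difference of both genes is therefore given as a description with no p-value.

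In Crh-TRAP mice, Cre under a Crh promoter transgene switches on an EGFP-tagged L10a ribosomal protein from the Rosa26 locus, and antibodies against GFP then pull down the RNA on the tagged ribosomes. All 44 mice carried both transgenes, were 10 to 16 weeks old, and gave 1 sample each from punches taken on both sides over the amygdala, which the labels call central amygdala. TA mice (n = 16, 10 males and 6 females) heard tones while the shock generator was off, and FC mice (n = 12, 6 males and 6 females) received 5 pairings of tone and foot shock. EXT mice (n = 16, 10 males and 6 females) were conditioned in the same way and on the next day heard 30 tones without shock in another context. EXT mice thus differed from FC mice in an added day as well as in extinction, and from TA mice in the shocks too. After conditioning they went back to the animal facility, while TA and FC mice stayed in a holding room until sacrifice.

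Both enzymes bind double-stranded RNA and turn adenosine into inosine, which the ribosome reads as guanosine. Adar makes a long form that interferon induces and that shuttles to the cytoplasm, and a short nuclear form made from another start, and it keeps the cell's own double-stranded RNA from being sensed as viral. Adarb1 is largely a nuclear enzyme of neurons that recodes the Gria2 subunit of AMPA receptors, which makes these channels almost impermeable to calcium.

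On build GRCm38 (GENCODE release M21), Adar lies on chromosome 3 from 89715022 to 89753446 on the plus strand, with 9 transcripts, 5 of them protein coding. The coding transcript from the upstream start, at 89715022, has 930 codons, and the longest one from the downstream start, at 89730748, has 1178. Adarb1 lies on chromosome 10 from 77290726 to 77418270 on the minus strand, with 13 transcripts, 3 of them protein coding with 701 or 711 codons. The table holds 1 value per gene, so transcripts from the different starts of Adar were not told apart. The 3′ end of Adar overlaps Chrnb2 on the opposite strand, a gene not analysed here, and no use of strand in the counting is stated.

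The sequences in front of the downstream Adar start and the Adarb1 start are shown because the interferon-induced long form of Adar starts at the former, and because the study deals with the cAMP response element binding protein CREB. They are from RefSeq (GRCm38.p6), 5′ to 3′ on the strand of the gene. RefSeq has 3 windows for Adar and 1 for Adarb1, each of 250 bases before and 50 bases after an annotated start, and both strands were searched. Capitals mark GAAANNGAA, the core letters of interferon response elements, in Adar, and TGACG or its reverse complement, the core of the cAMP response element, in Adarb1. The first 2 lines belong to the same Adar window, and the second of them holds 30 bases just after its start.
Adar, chr3:89730468-89730717, plus strand: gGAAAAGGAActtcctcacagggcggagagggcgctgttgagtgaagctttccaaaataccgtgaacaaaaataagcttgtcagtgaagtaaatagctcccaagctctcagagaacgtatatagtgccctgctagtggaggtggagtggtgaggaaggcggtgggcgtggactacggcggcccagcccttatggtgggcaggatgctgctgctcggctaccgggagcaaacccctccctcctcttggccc
Adar, chr3:89730737-89730766, plus strand: cttttcaaggaaacGAAAGTGAActctggg
Adarb1, chr10:77418274-77418523, minus strand: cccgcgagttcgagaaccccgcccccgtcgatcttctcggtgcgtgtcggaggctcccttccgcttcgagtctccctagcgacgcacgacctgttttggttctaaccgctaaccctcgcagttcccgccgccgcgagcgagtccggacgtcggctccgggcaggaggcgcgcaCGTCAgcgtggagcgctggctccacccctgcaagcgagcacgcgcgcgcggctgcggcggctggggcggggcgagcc

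The downstream Adar window held GAAANNGAA at 2 places, and the other Adar windows did not hold it. Of all 32851 windows in the RefSeq table, 8.56% held GAAANNGAA. The Adarb1 window held TGACG once, 77 bases before the start, and 20.8% of all windows held it. No window of either gene held TGACGTCA, the full palindrome that contains it, against 1.79% of all windows. These matches describe letters only, and no factor's binding was measured.

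The labels give 5 batches. Batches 1, 2 and 5 hold all groups, with 4 TA, 5 FC and 2 EXT mice in batch 1, 5, 2 and 3 in batch 2, and 7, 5 and 5 in batch 5, while batch 3 (5 mice) and batch 4 (1 mouse) hold EXT mice only, so that group and batch cannot be told apart there. Library sizes, solved back from the scaling of the values, ran from 12802113 to 20440351. Group medians ran from 15412341 in EXT to 18015590 in TA mice. These are scaling sizes and not counts of sequenced reads. In FC animal 13, for instance, the listed genes alone held 16920276 reads, against a library size of 16372659. Crh, Gad1 and Gad2 were present in every mouse, with mean levels in TA mice of 5.81 ± 0.65, 9.39 ± 0.24 and 9.12 ± 0.24 log2 cpm (SD, n = 16), and markers of glia and choroid plexus were present too. Of the marker lists, 11 of 11 astrocyte and 9 of 10 oligodendrocyte genes were in the table, but 1 of 10 for microglia, 2 of 9 for endothelium and 3 of 10 for choroid plexus and ependyma. Sex labels could not be tested with Eif2s3x, Kdm5c and Ddx3x, in which 3, 4 and 4 of 18 females exceeded all males.

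Adar was highest in TA mice, lower in FC mice and lowest in EXT mice. In log2 cpm, the log2 of reads scaled to a common library size, its level in TA mice was 5.44 at the lowest, 5.88 at the median and 6.45 at the highest, with a mean of 5.91 ± 0.28 (SD, n = 16). In FC mice the lowest, median and highest levels were 4.58, 5.52 and 6.15, with a mean of 5.49 ± 0.45 (n = 12). In EXT mice they were 3.85, 5.24 and 6.24, with a mean of 5.08 ± 0.65 (n = 16). With batches pooled, the spread between mice thus grew as the level fell, and the ranges of all groups overlapped. Within batches the SD did not rise in the order TA, FC, EXT. It was 0.38, 0.15 and 0.26 in batch 1, 0.17, 0.10 and 0.41 in batch 2, and 0.17, 0.49 and 0.15 in batch 5. These SDs rest on 2 to 7 mice each. Below the lowest TA mouse lay 5 of 12 FC mice and 9 of 16 EXT mice, and below the TA median lay 10 of 12 and 15 of 16. The FC mean lay below the TA mean by more than the SD of TA mice, though by less than that of FC mice, and the FC and EXT means were closer than the SD of either group. These levels are of tagged-ribosome RNA from whole punches, in which fewer cells of a type and less RNA per cell cannot be told apart.

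Adarb1 was nearly level across the groups. In TA mice its lowest, median and highest levels were 4.91, 5.49 and 6.04 log2 cpm, with a mean of 5.53 ± 0.29 (SD, n = 16). In FC mice they were 5.20, 5.50 and 6.38, with a mean of 5.57 ± 0.36 (n = 12), and in EXT mice 5.18, 5.67 and 6.75, with a mean of 5.71 ± 0.40 (n = 16). The order TA, FC, EXT is the reverse of that of Adar, but no neighbouring means differed by more than the SD of a group, and 0 of 12 FC and 0 of 16 EXT mice lay below the lowest TA mouse. The highest mouse in each of FC and EXT stood above all TA mice, as did 3 EXT mice in all.

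**Figure D1:**
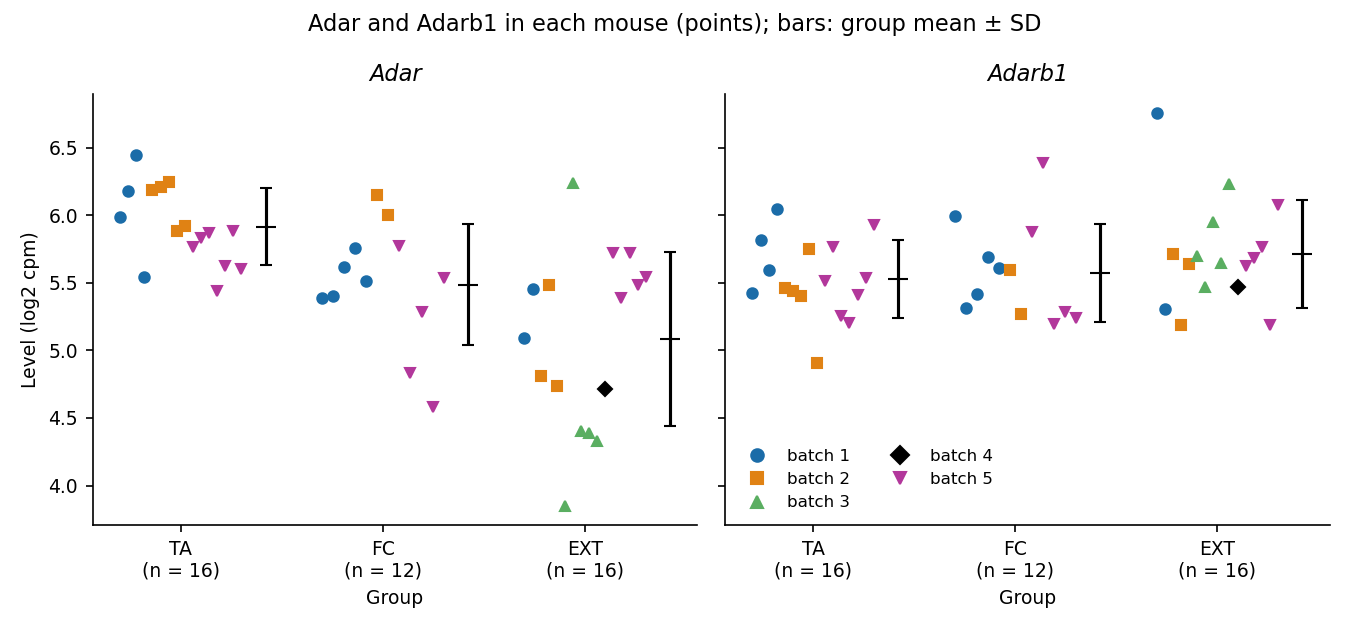
Level of Adar (left) and Adarb1 (right) in log2 cpm, 1 point per mouse, by group on the horizontal axis and by batch in colour and shape, with bars for the group mean ± SD. The lowest Adar levels are those of 4 of the 5 EXT mice of batch 3, the fifth mouse of that batch is at 6.24, and the Adarb1 columns overlap in most of their height, with 1 FC and 3 EXT mice above all TA mice.

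The values rest on enough reads to read these differences. Adar had 754 to 1783 reads in TA mice, 321 to 1212 in FC mice and 236 to 1346 in EXT mice, and Adarb1 had 521 to 1789 over all mice. The largest counting SD of any mouse was 0.09 on the log2 scale for Adar and 0.06 for Adarb1, which covers counting error only. The SD between mice of the same batch and group was 0.42 for Adar and 0.36 for Adarb1, against a median of 0.29 over all genes, which put them at the percentiles 85.6 and 75.5 of all genes. For Adar the SD was 0.92 in the EXT mice of batch 3, where 1 mouse was at 6.24 and the next at 4.40. It ran from 0.10 to 0.49 in the other combinations of batch and group with at least 2 mice. The pooled SD without that mouse was not computed. Group accounted for 36.2% of the variance of Adar and 5.4% of that of Adarb1 when taken alone, against a median of 7.9% over all genes. Batch taken alone accounted for 35.0% and 12.2%, against a median of 41.5%, and the 2 shares for Adar overlap because batches 3 and 4 hold EXT mice only.

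FC vs. TA asks what differs after tone-shock pairings against tones alone. It used limma on all 8203 genes with batch as categories and sex as covariates, and it shares its TA mice with the contrast by which Adar was chosen, so its p is not free of that choice. Adar was lower in FC mice by -0.41 on the log2 scale (SE 0.11, 95% interval -0.63 to -0.18, n = 12 and 16), with an unadjusted p of 0.00098 and an adjusted p of 0.107 from limma, and so was not FDR-significant. The background is that 0% of genes (0 of 8203) were FDR-significant in this comparison, and 8.2% were lower and 8.61% higher at an unadjusted p under 0.05. Within batch 1 the 5 FC mice were at 5.39, 5.40, 5.51, 5.62 and 5.76 and the 4 TA mice at 5.54, 5.99, 6.18 and 6.45. The difference of means was -0.50 there, -0.012 in batch 2, where the FC mice were at 6.0 and 6.15, and -0.52 in batch 5, where the 5 FC mice ran from 4.58 to 5.77 and the 7 TA mice from 5.44 to 5.88. The ranges overlapped in each of these batches, and batch 2, with 2 FC mice, showed next to no difference. With batch as a number the Adar difference was -0.45 (SE 0.12), with an adjusted p of 0.303 from limma. In males alone it was -0.28 (SE 0.14, adjusted p 0.426 from limma) and in females alone -0.60 (SE 0.17, adjusted p 0.282 from limma). Adarb1 differed by -0.00027 (SE 0.12, 95% interval -0.24 to 0.24), with differences of -0.12, 0.04 and 0.08 in batches 1, 2 and 5.

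Other measures moved with Adar in this comparison. The mean log2 level of 802 long genes minus that of 804 short genes was lower in FC than in TA mice by -0.14 within batches, and with it as a covariate the Adar difference was -0.19 (SE 0.10) with an adjusted p of 0.606 from limma. Within the same batches the summed level of the 11 astrocyte markers was higher in FC mice by 0.53 on the log2 scale, with ranges of 985 to 2461 cpm in FC and 681 to 2877 cpm in TA mice, and that of the 3 choroid plexus and ependyma markers was lower by -0.82. The summed level of the 9 oligodendrocyte markers was higher by 0.31, and that of the 13 markers of Crh and central amygdala GABA neurons was lower by -0.23, with ranges of 3368 to 8305 cpm in FC and 3290 to 7637 cpm in TA mice. Of these 13 genes 9 were lower in FC mice, including 3 with an unadjusted p under 0.05, with a median difference of -0.15. The part of the astrocyte, choroid plexus and GABA neuron levels in the Adar difference was not tested, and with the oligodendrocyte level as a covariate the difference was -0.37 (SE 0.11).

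EXT vs. FC separates extinction and its added day from conditioning. It shares its EXT mice with the contrast by which Adar was chosen, so the Adar value and its p are not free of that choice. In this fit (n = 16 and 12) the difference came from batches 1, 2 and 5, and Adar differed by -0.15 (SE 0.23, 95% interval -0.61 to 0.32), with an adjusted p of 0.975 from limma. With batch as a number, so that the EXT mice of batches 3 and 4 weighed in, it was -0.39 (SE 0.21, adjusted p 0.306 from limma). The direction was not the same in each batch. In batch 1 the EXT mice were at 5.09 and 5.45, a difference of -0.26 from the FC mice. In batch 2 the 3 EXT mice, at 4.74, 4.81 and 5.49, lay below both FC mice, a difference of -1.07, as all EXT mice did for 19.8% of genes in that batch. In batch 5 the 5 EXT mice ran from 5.39 to 5.72, and their mean was 0.37 above that of the FC mice. Adarb1 differed by 0.16 (SE 0.16, 95% interval -0.17 to 0.50, adjusted p 0.975), with overlapping ranges and EXT means above FC means by 0.43, 0.08 and 0.07 in batches 1, 2 and 5. Again 0% of genes were FDR-significant by limma, and 1.97% were lower and 2.22% higher at an unadjusted p under 0.05. Single mice moved these values. Leaving out 1 mouse at a time gave -0.25 to -0.044 for Adar, with values more than 1.5 times larger or smaller without FC animals 13, 47, 42 and 43 (-0.25, -0.24, -0.044 and -0.067) and EXT animals 21, 26 and 52 (-0.071, -0.096 and -0.085). For Adarb1 it gave 0.0033 to 0.27, the extremes without EXT animals 26 and 28, and 0.25 without FC animal 13. With log2 library size as a covariate the Adar difference was 0.11, the opposite direction, with an adjusted p of 0.993.

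EXT vs. TA holds the difference for which Adar was chosen. With batches as categories Adar was lower by -0.58 (SE 0.17) in EXT mice, and with batch as a number in the fit, which lets the EXT mice of batches 3 and 4 weigh in, by -0.83 (SE 0.17). In the 3 shared batches the differences were -0.77, -1.08 and -0.15. In batches 1 and 2 all EXT mice lay below all TA mice, as they did for 9.05% and 9.59% of genes there, while in batch 5 the EXT range of 5.39 to 5.72 lay inside the TA range of 5.44 to 5.88 but for 1 mouse. Whether the difference varied between batches was not tested. The EXT mice of batch 3 were at 3.85, 4.33, 4.39, 4.40 and 6.24, and the batch 4 mouse was at 4.72. Of the 13 markers of Crh and central amygdala GABA neurons, 9 were lower in EXT mice with batches as categories, 0 of them FDR-significant, with a median of -0.20. With batch as a number 10 were lower, 5 of them FDR-significant, and 1 of the others was FDR-significant higher, with a median of -0.61, beside 21.4% of all genes. Their summed level ran from 1956 to 8156 cpm in EXT and from 3290 to 7637 cpm in TA mice, and its part in the Adar difference was not tested. In males alone the Adar difference was -0.45 and in females alone -0.79. It was -0.38 (SE 0.21) with log2 library size as a covariate, the EXT libraries being the smallest of the groups at the median, and -0.33 (SE 0.17) with the level of long minus short genes. Leaving out each mouse in turn gave -0.64 to -0.49. Adarb1 was higher in EXT mice by 0.17 (SE 0.13), with within-batch differences of 0.31, 0.12 and 0.15 and overlapping ranges in each batch.

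**Figure D2:**
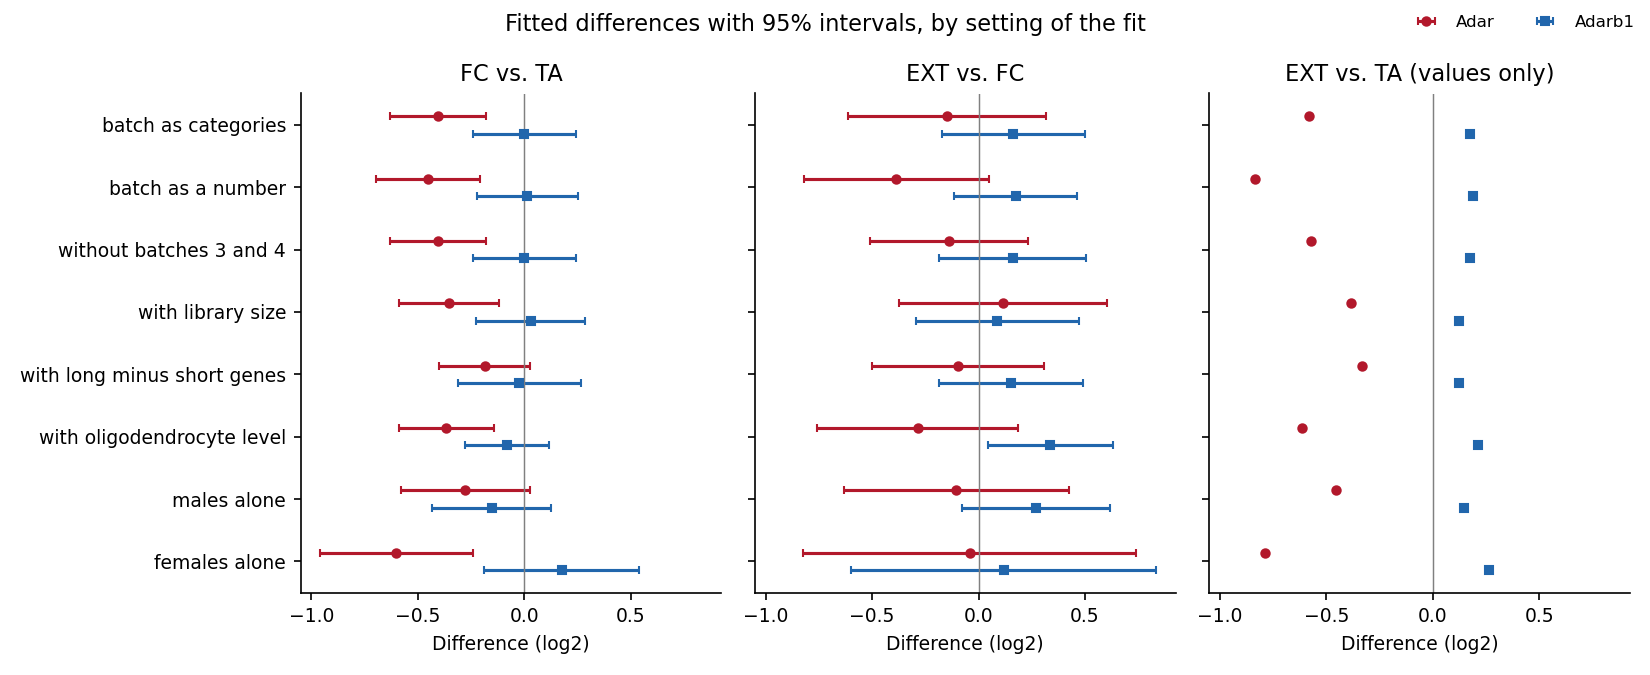
Fitted difference in log2 level (horizontal axis) with its 95% interval for Adar (circles) and Adarb1 (squares) in the 3 comparisons, with 1 line per setting of the limma fit. In FC vs. TA the Adar points lie below 0 in each setting drawn, with intervals that reach 0 with long minus short genes and in males alone, and in EXT vs. FC they lie on both sides of 0. The EXT vs. TA values are drawn without intervals, and the Adarb1 intervals drawn reach 0 in all but 1 setting, which is EXT vs. FC with the oligodendrocyte level.

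In EXT vs. FC the summed oligodendrocyte level was lower in EXT mice by -0.46 within batches, with 9 of 9 markers lower and 3 at an unadjusted p under 0.05. The summed astrocyte level was lower by -0.38, with 11 of 11 markers lower and 3 at an unadjusted p under 0.05, and its part in either enzyme's difference was not tested. Over all genes 3837 of 8203 were lower by sign, and 1.97% at that p. These marker counts depend on the coding of batch. With batch as a number 7 of 11 astrocyte markers (median -0.039) and 6 of 9 oligodendrocyte markers (median -0.17) were lower, 1 of each at that p. The medians with batches as categories were -0.43 and -0.55. With the oligodendrocyte level as a covariate Adarb1 was 0.34 higher (SE 0.14, adjusted p 0.518 from limma), which was not FDR-significant either. Of the 13 markers of Crh and central amygdala GABA neurons, 7 were lower with batches as categories, with a median of -0.025. Their summed level was higher by 0.18 within batches. With batch as a number 11 were lower, with a median of -0.44. Of these 5 had an unadjusted p under 0.05, beside 685 lower of 8203 genes, and 1 marker was higher at that p. Their part in the Adar difference was not tested.

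The scaling to library size cancels in the ratio of the 2 enzymes within a mouse. The log2 level of Adar minus that of Adarb1 was 0.39 ± 0.43 in TA, -0.09 ± 0.62 in FC and -0.63 ± 0.85 in EXT mice (mean ± SD, n = 16, 12 and 16). Per kilobase of exon (8118 bases for Adar and 11272 for Adarb1), Adar was above Adarb1 in 15 of 16 TA mice, 9 of 12 FC mice and 7 of 16 EXT mice. The ratio per kilobase thus went from a log2 value of 0.86 in TA to 0.39 in FC and -0.15 in EXT mice. The EXT value takes in batches 3 and 4, which hold EXT mice only. In the 10 EXT mice of batches 1, 2 and 5 the mean log2 ratio, not scaled to length, was -0.35, against -0.63 in all 16. The ratio per kilobase in these 10 mice was not computed, so its value below 0 is not shown for the shared batches. Within batches the log2 ratio was lower in FC than in TA mice by -0.41 (two-sided permutation test within batches with 100000 resamples, p = 0.0269, and 0.0539 when adjusted over 2 tests). For the 10 EXT mice of batches 1, 2 and 5, it was lower than in FC mice by -0.32 (permutation p = 0.294) and lower than in TA mice by -0.74, given with no test. The 2 tested differences share TA or EXT mice with the contrast by which Adar was chosen, so their p are not free of that choice. The adjusted value of the first comparison, FC vs. TA, missed the threshold. In males alone the difference was -0.12 (permutation p = 0.535) and in females alone -0.78 (permutation p = 0.00431), and whether the sexes differ in the ratio was not tested. Leaving out TA animal 10, FC animal 13 or FC animal 47 took its unadjusted p over 0.05, with differences of -0.35, -0.28 and -0.36. Per kilobase both genes were among the lower genes of the table, at the percentiles 26.4 (Adar) and 19.8 (Adarb1) of the 8023 genes with an exon length.

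Neither gene differed detectably between the sexes. The difference of males minus females over all 44 mice was -0.19 (SE 0.15, 95% interval -0.50 to 0.11) for Adar and -0.17 (SE 0.12, 95% interval -0.42 to 0.07) for Adarb1, with an adjusted p of 0.9998 from limma for both. Over all genes, 0% were FDR-significant by sex, and an unadjusted p under 0.05 was found for 4.13%. The interaction of sex with FC vs. TA was 0.26 (SE 0.22, adjusted p 0.740) for Adar and -0.29 (SE 0.23, adjusted p 0.720) for Adarb1. The intervals are wide enough to hold sex differences of the size of the FC vs. TA difference, and these results rest on the sex labels.

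No FDR-significant difference between batches 1, 2 and 5 was found in either gene with group and sex in the main fit. That fit takes the batch differences to be the same in each group, and for Adar the means did not follow this. In batches 2 and 5 they were 6.09 and 5.72 in TA, 6.08 and 5.20 in FC, and 5.01 and 5.57 in EXT mice. Whether the batch differences varied between groups was not tested. The largest difference between their means was 0.21 for Adar (adjusted p 0.376 from the F test of limma) and 0.19 for Adarb1 (adjusted p 0.565), whereas 55.3% of all genes were FDR-significant by this test. With array weights, which give less weight to mice far from the fit, the value for Adar was 0.35, with an adjusted p of 0.0143.

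Between mice of the same batch and group, Adar and Adarb1 did not rise and fall together. Over the 43 mice in cells of at least 2 mice, with cell means subtracted, Pearson's r was -0.25 (permutation p 0.144, adjusted 0.217 over 3 relations) and Spearman's rho -0.28 (p 0.121). Of all other genes, 5809 had a higher r with Adar than Adarb1 had. With log2 library size, r was 0.35 for Adar (permutation p 0.118, adjusted 0.217, rho 0.25) and -0.01 for Adarb1 (permutation p 0.951, rho -0.03). Without the 2 mice farthest from the median of the first measure these r were -0.25, 0.35 and 0.03. When means of batches alone were subtracted, so that the groups stayed in, r with library size was 0.48 for Adar. This value takes in the EXT vs. TA difference by which Adar was chosen, and EXT libraries were the smallest at the median. It is therefore given with no p.

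The genes nearest to each enzyme in this between-mouse pattern are named by their r alone. The highest r with Adar over the 43 mice were those of Acly (0.89), the enzyme that makes cytosolic acetyl-CoA, Prepl (0.87), Ubqln1 (0.86), Dhx30 (0.86), an RNA helicase, and Lrsam1 (0.85). The lowest were those of Commd6 (-0.86), Sys1 (-0.81) and Mettl9 (-0.81). For Adarb1 the highest were Lynx1 (0.91), a modulator of nicotinic receptors, Diras1 (0.89), Cplx1 (0.88) and Vamp1 (0.87), both of synaptic vesicle release, and Nat8l (0.87), the enzyme that makes N-acetylaspartate. The lowest were Grhl1 (-0.82), AW551984 (-0.82) and Fhl1 (-0.81). These genes are the extremes of all those in the table, picked by their r. Mice share library and batch effects, so no p is given. For Adar, animal 23 (EXT, batch 3) lay 1.60 above the mean of its batch and group, the largest deviation of any mouse. It stood apart from the other batch 3 mice in 8.3% of all genes, and the r without it were not computed.

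Transcript length went with the Adar pattern and not with that of Adarb1. Across the genes with an exon length, which are not independent replicates, Spearman's rho between a gene's length and its r with Adar was 0.24, and with Adarb1 it was -0.05. The 100 genes most like Adar had a median exon length of 5323 bases and the 100 least like it 1836 bases, against 4549 over all genes. The corresponding values for Adarb1 were 4725 and 4578 bases. Per mouse, the level of the 802 genes of at least 10372 bases minus that of the 804 genes of at most 1788 bases had an r of 0.57 with Adar within batch and group (permutation p 0.014, adjusted 0.112 over 16 relations) and a rho of 0.52 (adjusted p 0.0288 by permutation). This measure was chosen after the data were seen, so these p are not free of that choice. The length values above rest on the same mice and are not separate support for it. Without the 2 farthest mice r was 0.55. This check does not show how far r rests on animal 23. That mouse lay 1.60 above the mean of its batch and group in Adar and 0.46 above it in this measure. The r without animal 23 was not computed. For Adarb1 r was -0.09 and rho -0.08. Animal 23, the EXT mouse of batch 3 with the high Adar level, also had the highest value of this measure in EXT, -0.13 against a group median of -0.85.

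Adarb1 went with the level of oligodendrocyte markers. Of 10 oligodendrocyte markers 9 were measured, and their summed level ran from 1395 to 6381 cpm in TA, 1684 to 18353 in FC and 1861 to 13436 in EXT mice. Its r with Adarb1 within batch and group was 0.63 (permutation p 0.00011, adjusted 0.00176 over 16 relations) and rho 0.62 (adjusted 0.0024 by permutation), and without the 2 farthest mice r was 0.54. The FC mouse with the highest Adarb1 level, animal 13 at 6.38, had the highest oligodendrocyte level of all mice, while the EXT mouse with the highest Adarb1 level, animal 26 at 6.75, ranked 19 of 44 in it. For the 5 glutamatergic markers measured, r with Adarb1 was -0.52 (adjusted p 0.184 by permutation), and for the 11 astrocyte markers it was -0.31 (adjusted p 0.200 by permutation). For Adar the r with the oligodendrocyte markers was -0.21 (adjusted p 0.490 by permutation). The r of Adar with the 2 endothelial genes was 0.51 but turned to -0.29 without the 2 farthest mice, and so rests on those mice. The 13 measured markers of Crh and central amygdala GABA neurons had an r of 0.19 with Adar and 0.21 with Adarb1, neither past the threshold after adjustment (adjusted p 0.519 for both by permutation). Whether Adarb1 RNA in the pulldown came from Crh neurons or from other cells was not measured.

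**Figure D3:**
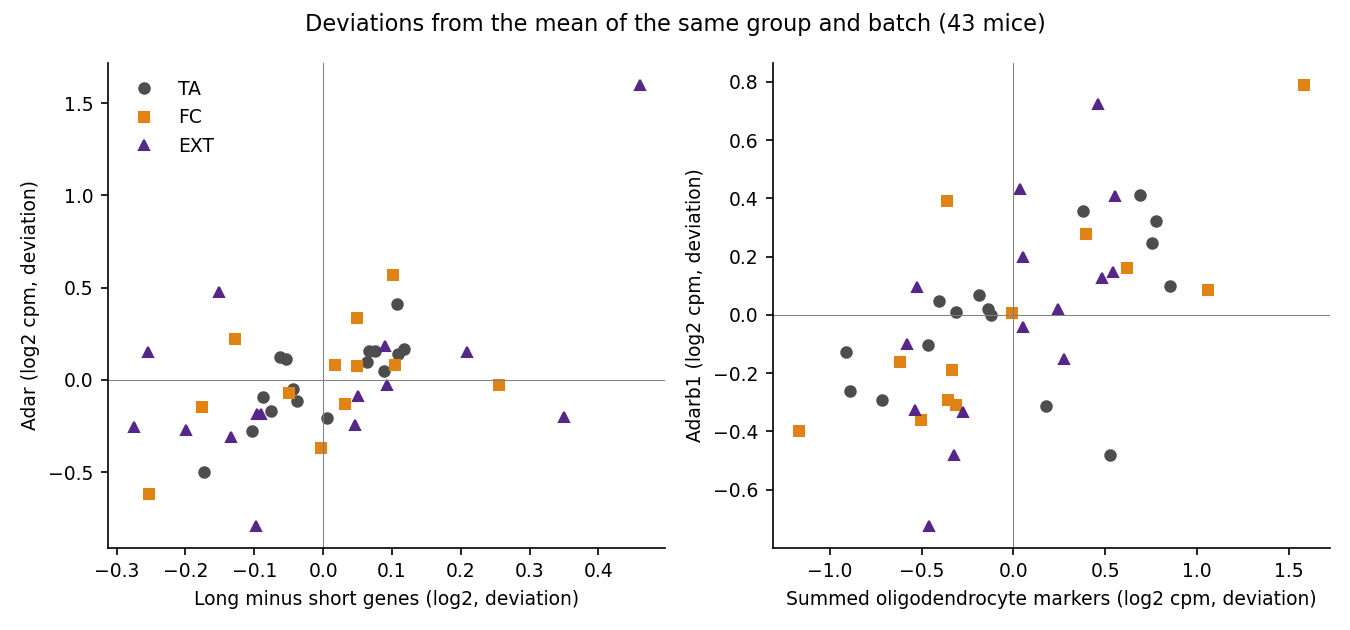
Deviation of each of 43 mice from the mean of its batch and group, for Adar against the level of long minus short genes (left) and for Adarb1 against the summed oligodendrocyte markers (right), both axes on the log2 scale, with TA as circles, FC as squares and EXT as triangles. Both clouds rise to the right, with r of 0.57 and 0.63, and the EXT mouse at the top right of the left panel is animal 23.

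The partners of the enzymes were taken from a list of 41 genes for RNA-binding proteins, importins and modifying enzymes that bind, move or regulate Adar or Adarb1, of which 35 besides the enzymes were measured. In FC vs. TA, 0 of 35 were FDR-significant, and 4 were lower and 0 higher at an unadjusted p under 0.05, with a median difference of -0.06 on the log2 scale against -0.0041 over all genes. Those with the smallest p were Fxr2, a relative of the fragile X protein (-0.28, SE 0.09, adjusted p 0.133), and Stau1, a double-stranded RNA-binding transport protein (-0.30, SE 0.10, adjusted p 0.160), both from limma. Over all genes 8.2% were lower at that p.

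In EXT vs. TA, 13 of the 35 were lower and 2 higher at an unadjusted p under 0.05, beside 11% lower and 10.2% higher over all genes, and 0 were FDR-significant, beside 0.0244% (2 of 8203). The median difference was -0.21 against 0.0073. Those with the smallest p were Elavl2, a neuronal RNA-binding protein (-0.34, SE 0.10, adjusted p 0.143), Stau1 (-0.36, SE 0.12, adjusted p 0.143), and Fmr1, the fragile X protein (-0.25, SE 0.08, adjusted p 0.145), from limma. With batch as a number in the fit, 18 of the 35 were FDR-significant, 16 lower and 2 higher, beside 21.4% of all genes. In EXT vs. FC, 2 of 35 were lower and 0 higher at an unadjusted p under 0.05, beside 1.97% and 2.22% of all genes, and 0 were FDR-significant. They were Xpo1, an exporter that carries the long form of Adar out of the nucleus (-0.28, SE 0.12), and Elavl2 (-0.32, SE 0.14), followed by Fmr1 (-0.22, SE 0.11), all with an adjusted p of 0.975 from limma. FC vs. TA and EXT vs. TA share their TA mice, so that a gene low in both is not 2 observations. Wwp2, which marks Adarb1 for degradation, was named after its values were seen. In EXT vs. TA it differed by -0.28 (SE 0.14, adjusted p 0.233 from limma).

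Recoded targets are transcripts in which editing by these enzymes changes an amino acid, and their levels say nothing of the share edited, which was not measured. Of 35 such genes 23 were measured. Gria2 had a level of 8.24 ± 0.56 log2 cpm in TA, 8.22 ± 0.53 in FC and 8.20 ± 0.36 in EXT mice (SD). Its difference was -0.20 (SE 0.10, adjusted p 0.320 from limma) in FC vs. TA and -0.014 (SE 0.11) in EXT vs. TA. Of the other AMPA receptor subunits, Gria3 differed by -0.29 (SE 0.12, adjusted p 0.220 from limma) and Gria4 by -0.12 (SE 0.12) in FC vs. TA, and by -0.088 (SE 0.13) and -0.22 (SE 0.13) in EXT vs. TA. The GABA receptor subunit Gabra3 differed by -0.092 (SE 0.12) in FC vs. TA and -0.17 (SE 0.15) in EXT vs. TA, and the potassium channel Kcna1 by -0.23 (SE 0.18) and 0.014 (SE 0.14). Cyfip2, of the actin-regulating WAVE complex, differed by -0.18 (SE 0.09) and -0.11 (SE 0.10), and Blcap by 0.015 (SE 0.07) and -0.046 (SE 0.10). None of these was FDR-significant.

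In FC vs. TA, 0 of the 23 targets were FDR-significant, with 1 higher and 3 lower at an unadjusted p under 0.05 and a median of -0.11. Over all genes 8.61% were higher and 8.2% lower, so that the counts of targets are near those of all genes. Besides Gria3 the smallest p were those of Tro (-0.40, SE 0.13, adjusted p 0.137) and Unc80, a subunit of the sodium leak channel (0.30, SE 0.10, adjusted p 0.155), from limma. In EXT vs. TA, 6 were lower and 0 higher at an unadjusted p under 0.05, beside 11% and 10.2% of all genes. By sign alone 17 were lower and 6 higher, beside 3975 lower and 4228 higher over all genes. The median was -0.046 against 0.0073 over all genes. The smallest p were those of Copa (-0.53, SE 0.17, adjusted p 0.145) and Copb2 (-0.43, SE 0.16, adjusted p 0.159), both of the coat of Golgi vesicles, and Cadps, of dense-core vesicle release (-0.23, SE 0.08, adjusted p 0.154), from limma. With the batch number as a covariate 5 of 23 targets were FDR-significant, beside 21.4% of all genes, with Copa and Copb2 among them at -0.59 and -0.63. That count is close to the share over all genes. In that fit 13 targets were lower and 10 higher by sign alone, with a median of -0.0049. In EXT vs. FC, Cadps (-0.25, SE 0.12) was lower and Gsk3b (0.23, SE 0.11) higher at an unadjusted p under 0.05, both with an adjusted p of 0.975 from limma, followed by Tmem63b (0.26, SE 0.16). These are 1 of 23 in each direction, beside 1.97% lower and 2.22% higher over all genes, and 0 were FDR-significant.

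Sensing of double-stranded RNA is the response that Adar restrains, and only 5 of 37 genes of this list (Tbk1, Jak1, Eif2s1, Ifi27 and B2m) were in the table. In FC vs. TA, 0 of 5 were FDR-significant. B2m, of the major histocompatibility complex, differed by 0.42 (SE 0.16, adjusted p 0.192 from limma), Jak1, a kinase of interferon receptors, by -0.29 (SE 0.12, adjusted p 0.212 from limma) and Tbk1, a kinase of interferon induction, by -0.18 (SE 0.12). In EXT vs. TA, Jak1 differed by -0.50 (SE 0.19, adjusted p 0.155 from limma), Tbk1 by -0.28 (SE 0.13) and Eif2s1, the translation factor that double-stranded RNA kinase acts on, by -0.23 (SE 0.13). In EXT vs. FC, Eif2s1 differed by -0.21 (SE 0.16), B2m by -0.22 (SE 0.21) and Jak1 by -0.24 (SE 0.23), with none FDR-significant. With the batch number as a covariate Jak1 (-0.59) and Eif2s1 (-0.47) were FDR-significant in EXT vs. TA, 2 of 5 genes beside 21.4% of all genes. The other editing enzymes of a list of 13, Adarb2 among them, and most interferon-stimulated genes were not analysed here.

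**Figure D4:**
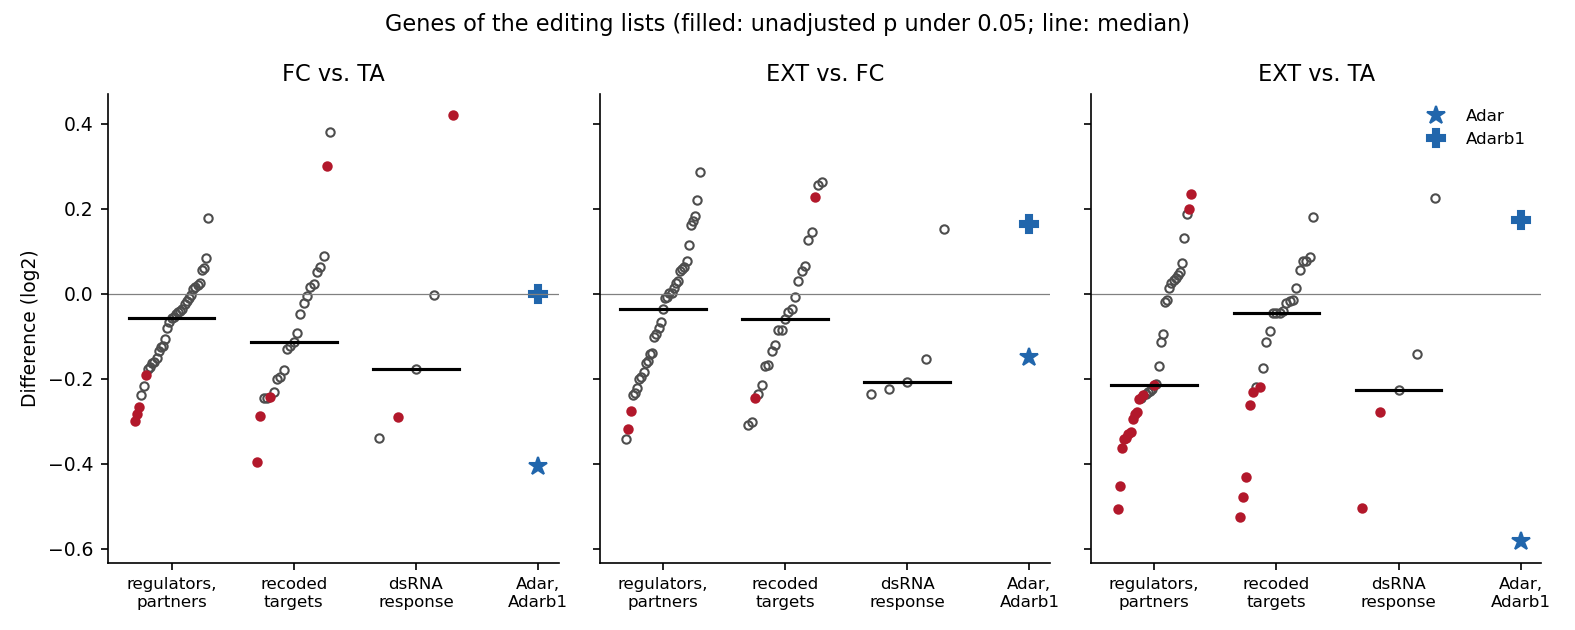
Fitted log2 difference (vertical axis) of each measured gene of the partner, target and double-stranded RNA response lists and of Adar (star) and Adarb1 (plus sign) in the 3 comparisons, with filled points for an unadjusted p under 0.05 and a line at each list's median. Adar lies below all listed genes in FC vs. TA and EXT vs. TA and among them in EXT vs. FC.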

How the data were processed

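RNA from EGFP-tagged ribosomes of 44 mice was sequenced as paired 50 bp reads. Per the labels and methods, reads were trimmed with Trimmomatic 0.36 and aligned by STAR to build GRCm38. Using edgeR and limma, the authors filtered genes on a cpm minimum that every sample had to meet, removed outliers among the samples and applied voom. The deposited values are log2 cpm, computed from reads plus 0.5. Whole reads and library sizes were solved back for 360932 of 360932 values (tolerance 0.01 reads).

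The deposited log2 values were compared with limma 3.58.1 in R 4.3.3 (lmFit and eBayes, two-sided, Benjamini-Hochberg over 8203 genes, FDR threshold 0.05). Batch entered as categories because the labels give the batch numbers no order, with batch as a number as an alternative. Group, sex and batch came from the labels. Each sample is 1 mouse. Sex or group labels of animals 22, 25, 44 and 53, all of batch 3, are out of the run of animal numbers and were kept. Permutation tests used 100000 resamples within batches, or within cells of batch and group for correlations. Methods were tested on simulated data.

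The members and lists were chosen with earlier results of these data known. Named were both enzymes, from each list the 3 smallest p per comparison and any FDR-significant gene, well-known recoded targets, and the 5 highest and 3 lowest r with each enzyme. Alternatives were other batch codings, no batches 3 and 4, all groups together, other scalings and variance models, array weights, library size, a minimum mean log2 value of 5, voom weights, each sex alone and each mouse left out. Covariates for long minus short genes and for oligodendrocyte level were chosen after seeing the data. Permutations and summaries ran in Python 3.11.15 with scipy 1.17.1, numpy 2.4.6 and pandas 2.3.3. Protein sequences were not used here, and some genes that the rule names are not reported here.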

Additional observations from a re-analysis of the deposited data

Results flagged for a closer look

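Among the 26 groups of 4 to 10 mice tested for a mouse far from the others (Adar and Adarb1, by group with batch or sex), 1 was marked, where chance marks about 1 in 20. Animal 23, an EXT female of batch 3, had an Adar level of 6.24 log2 cpm, far above the next highest of the 5 EXT mice of batch 3 at 4.40 and the lowest at 3.85 (gap over range 0.770, limit 0.71). Its level lay inside the range of TA mice, and its solved library size of 17805609 was the largest of the EXT mice. By reads in the listed genes it was not the largest, with 16892170 against 17184670 in EXT animal 24. Its Adarb1 level of 5.47 was the lowest of batch 3. It stood apart from the other batch 3 mice in the same way in 8.3% of all genes (681 of 8203), against 0.37% to 0.76% for each of the other 4 mice of the batch. Because no TA or FC mice are in batch 3, it enters the EXT vs. TA difference with batches as categories only through the sex term, while it adds to the spread, and without it 472 genes were FDR-significant there instead of 2. The cause was not tested.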

How the results depend on the processing

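The cause was not tested for any of these. With the adjusted p of limma, Adar missed the FDR threshold in FC vs. TA in every setting run, at -0.27 with array weights, -0.28 in males alone, -0.60 in females alone and between -0.46 and -0.34 when single mice were left out. The Adarb1 difference in FC vs. TA, near 0, turned to 0.014 with batch as a number, 0.010 with median centring, 0.017 with quantile normalization, 0.013 with no batch term, 0.029 with library size, 0.0031 with voom weights and 0.18 in females alone, and ran from -0.077 to 0.061 with single mice left out. Adar in EXT vs. FC turned to 0.11 with library size. The number of FDR-significant genes in EXT vs. TA, 2 with batches as categories, was 1755 with batch as a number, 1614 with no batch term, 409 without batches 3 and 4, 60 with the oligodendrocyte level, 1 with all groups together, with the filter or in males alone, and 0 with library size, with long minus short genes, with voom weights or in females alone. With single mice left out it ran from 0 to 472, the 472 without animal 23, and was 6 without animal 58. In FC vs. TA it was 3 with the filter on low values, and 0 to 3 with single mice left out. These were without FC animals 18 (3), 19 (1) and 43 (2). In EXT vs. FC it was 4 with array weights and 2 in males alone. By sex it was 597 with no batch term, and by batch 2983 in females alone. Of the lists in EXT vs. TA, batch as a number gave 18 of 35 partners, 5 of 23 targets and 2 of 5 double-stranded RNA genes, beside 21.4% of all genes. The ratio in FC vs. TA was -0.12 in males alone and -0.49 to -0.28 with single mice left out. The r with library size was 0.48 for Adar with batch means alone and 0.028 for Adarb1 without the 2 farthest mice. Array weights gave 0.35 for the Adar batch difference. With batch as a number, Blcap turned to -0.0062 in FC vs. TA, Gabra3 to 0.030 in EXT vs. FC, and Gria3 and Cyfip2 to 0.16 and 0.12 in EXT vs. TA. No paired analysis was possible because each mouse is in 1 group and the replicate numbers are only accession order.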
